A study of Triticum aestivum with 14 samples.

Results

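Accessible chromatin of vernalized leaf was compared with that of vernalized axillary bud in AK58, a winter bread wheat cultivar. Accessible chromatin regions (ACRs) are stretches of DNA that the transposase Tn5 could reach and cut in ATAC-seq. An ACR of the leaf list that overlapped an ACR of the bud list by at least 1 bp, or the reverse, was called common. The others were called leaf-side or bud-side, and both together one-sided. The leaf list held 126351 ACRs, of which 59777 were leaf-side and 66574 common. The bud list held 174089 ACRs, of which 114890 were bud-side and 59199 common. All 6 lists of the series together held 892288 ACRs.

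The series profiled leaf, axillary bud and shoot apex, each from unvernalized and from vernalized plants, with input DNA as control. Its labels name 14 samples in 7 groups of 2, and 1 ACR list was at hand for each of the 6 groups other than input. Unvernalized plants (groups Leaf, Axillary bud and Shoot apex) had grown for 2 weeks in a greenhouse at 22 °C by day and 19 °C by night. Vernalized plants had, per figure legends of the study, also grown for 2 weeks. They then spent 1 month at 4 °C and 1 day in the greenhouse. All groups had 16 h of light a day. The vernalized plants were therefore older, and cold and age cannot be told apart in a comparison of the conditions. The cultivar was the same in every group, and the labels name no mutant or transgene. Harvest differed between the tissues, since the small buds needed dissection and leaf did not. Nuclei stained for DNA with DAPI were sorted by flow cytometry. Each tissue was a mix of cell types, so a region open in more cells and a region more open in each cell cannot be told apart. The tissues could not be checked against marker genes, because the lists carry no expression values and gene positions of their build were not used.

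Accessible regions commonly mark promoters and more distant regulatory DNA, where nucleosomes give way to transcription factors. A leaf is built mainly of differentiated, photosynthetic cells, while an axillary bud is a dormant or growing meristem with young leaf primordia that can grow out into a tiller. Bread wheat carries A, B and D sub-genomes from different ancestors, and on its large chromosomes the genes become denser towards the ends and sparse in the repeat-rich interior.

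The lists give positions alone, with no read counts and no replicates. No p-value was therefore computed, and every difference below is one between 2 lists. Brackets hold 95% Wilson intervals. Such intervals reflect the error of counting alone, and adjacent ACRs are not independent of each other. Ranges over the 21 chromosomes are given as a description. In the read statistics of the study both vernalized bud libraries had more reads than either vernalized leaf library, and the part of read depth in the differences between the lists was not tested.

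The first question was how much of each list the other tissue shared. Leaf-side ACRs made up 47.3% of the leaf list (47.0% to 47.6%) and bud-side ACRs 66.0% of the bud list (65.8% to 66.2%). Across chromosomes the leaf-side share ranged from 43.5% on 1A to 50.9% on 7B. The bud-side share ranged from 62.7% on 4D to 69.8% on 7D, so the ranges did not overlap. Bud-side ACRs outnumbered leaf-side ACRs on 21 of 21 chromosomes, by ratios between 1.52 on 1D and 2.28 on 7A. The bud list was the larger, which by itself favours a higher number and share of bud-side ACRs on each chromosome. Before vernalization the same comparison had left 27737 leaf-side ACRs, 21.5% of the unvernalized leaf list, and 89602 bud-side ACRs, 51.0% of the unvernalized bud list.

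In covered length the classes were further apart than in number. Leaf-side ACRs covered 26.0 Mb and bud-side ACRs 68.1 Mb, while the common ACRs covered 45.6 Mb in the leaf list and 75.2 Mb in the bud list. The bud list stayed the more one-sided when it was cut to its widest 126351 ACRs, with 73358 bud-side against 65240 leaf-side ACRs. When a reciprocal overlap of at least 50% with a single ACR was asked for, common leaf ACRs fell in number to 25817.

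Most overlaps were clear of the 1 bp limit. Only 0.846% of common leaf ACRs overlapped the bud list by 50 bp or less, and 0.872% of leaf-side ACRs lay within 50 bp of a bud ACR. The median leaf-side ACR lay 7628 bp from the nearest bud ACR, and the median bud-side ACR 8764 bp from the nearest leaf ACR. For 13.9% of leaf-side and 15.9% of bud-side ACRs that distance exceeded 100 kb.

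Where the tissues shared a region, the bud ACR was usually the larger. Of the common leaf ACRs, 58.0% were covered by the bud list along their whole width, whereas 12.5% of common bud ACRs were so covered by the leaf list. A common bud ACR met more than 1 leaf ACR more often than the reverse, with 5930 bud ACRs that had 2 partners and 1396 that had more, up to 10. In the leaf list 1584 common ACRs had 2 partners and 131 had more. Among the 48685 one-to-one pairs, the median width was 506 bp in leaf and 850 bp in bud. The bud ACR was wider in 72.6% of pairs, the leaf ACR in 23.4%, and they were equal in 4.08%. The leaf ACR lay wholly inside its bud partner in 53.0% of pairs and the bud ACR inside its leaf partner in 11.8%. The midpoints of a pair were a median of 136 bp apart.

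One-sided ACRs of both tissues were narrower than common ones. The overlap rule by itself favours this, since a wide ACR has more bases to overlap with. The median width was 337 bp for leaf-side ACRs (quartiles 250 and 477 bp) and 412.5 bp for bud-side ACRs (quartiles 250 and 747 bp). Common ACRs had a median of 514 bp in the leaf list and 950 bp in the bud list. Bud-side ACRs had the higher median on 18 of 21 chromosomes, and on 2B, 5B and 7A the medians were equal at 350 bp. On some of the 18 the medians nearly coincided, such as 347.5 bp in leaf-side and 350 bp in bud-side ACRs on 6A. Over all chromosomes the difference of the medians was 75.5 bp, with a wide counting interval of 12.9 to 99.1 bp. ACRs over 1 kb made up 5.15% of the leaf-side class, 13.9% of the bud-side class and 47.6% of the common ACRs of the bud list. In the unvernalized lists the median width was 324 bp for leaf-side and 450 bp for bud-side ACRs.

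Widths in the 2 lists also took different values. The widths that whole 150 bp bins, set 100 bp apart, can give were found in 95.1% of bud-side but 40.8% of leaf-side ACRs. In the common ACRs these shares were 96.6% in the bud list and 44.3% in the leaf list, so the feature belonged to the lists and not to the one-sided classes. Its part in the width difference was not tested. Among unvernalized ACRs the shares were 94.1% for bud-side and 31.0% for leaf-side.

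The wider an ACR was, the less often it was one-sided. The overlap rule by itself favours this fall too, and its part was not tested. In the leaf list the one-sided share fell from 64.7% among ACRs of 201 to 250 bp to 36.4% at 501 to 750 bp and 17.7% above 2 kb. In the bud list it was 87.4%, 66.6% and 23.3% in the same ranges. The bud share was the higher in each of the 7 width ranges, by the least above 2 kb.

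**Figure D1:**
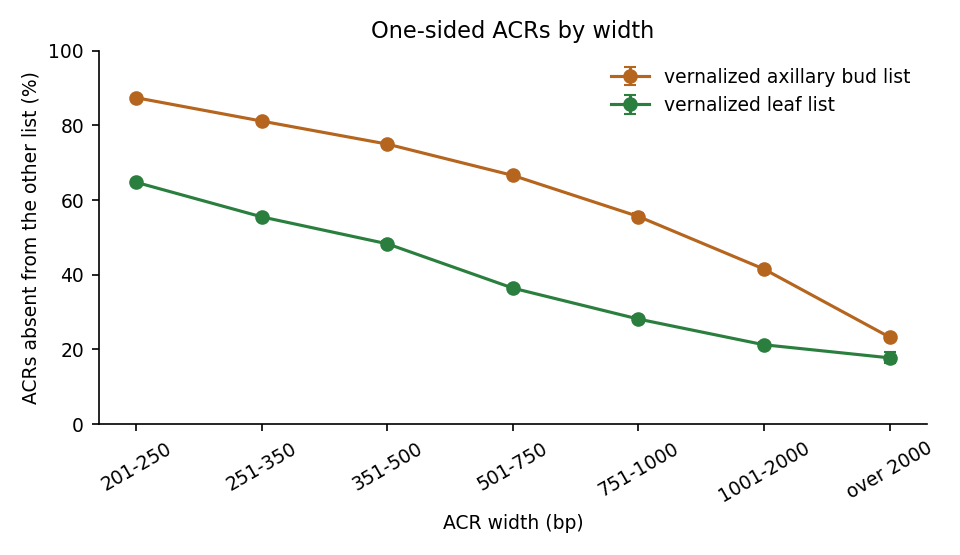
Share of ACRs (y axis, percent) of the vernalized leaf list and the vernalized axillary bud list that did not overlap the other list, in 7 ranges of ACR width (x axis, bp). Points are shares and bars 95% Wilson intervals, most of them smaller than the points. Both lines fall, from 64.7% to 17.7% in leaf and from 87.4% to 23.3% in bud. A wider ACR has more bases to overlap with.

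The sub-genomes were compared next. Of leaf-side ACRs the A sub-genome carried 30.3% (29.9% to 30.6%), the B sub-genome 33.0% (32.6% to 33.3%) and the D sub-genome 36.8% (36.4% to 37.2%). Of bud-side ACRs A carried 33.9% (33.6% to 34.2%), B 32.1% (31.8% to 32.4%) and D 34.0% (33.7% to 34.3%). The leaf-side class was thus shifted from A to D relative to the bud-side class. The D share was the higher in leaf-side ACRs in 7 of 7 homoeologous groups, the A share in 0 of 7 and the B share in 4 of 7. The D difference was widest in group 1, with 44.7% against 37.2%, and narrowest in group 7, with 37.1% against 36.9%. Common ACRs lay between the classes, with 35.1% on D in the leaf list. In the unvernalized lists the D share was 34.5% (34.0% to 35.1%) for leaf-side and 34.2% (33.9% to 34.6%) for bud-side ACRs.

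Since D spans 28.1% of the length covered by the chromosomes, both classes were densest there. Leaf-side density was 5.57 ACRs per Mb on D, 3.67 on A and 3.80 on B. Bud-side density was 9.89 per Mb on D, 7.89 on A and 7.12 on B. Chromosome 1D carried the densest leaf-side ACRs, 6.58 per Mb, and 1B the sparsest, 2.60 per Mb. For bud-side ACRs the extremes were 10.4 per Mb on 7D and 5.34 per Mb on 1B.

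The shift towards D was found in the 5 width ranges up to 1 kb and not in the 2 above. Among one-sided ACRs of 201 to 250 bp, the D share was 37.9% in leaf-side and 34.1% in bud-side ACRs. Between 1001 and 2000 bp it was 32.9% in leaf-side and 33.8% in bud-side ACRs, and above 2 kb it was 30.6% and 36.1%, so the order was turned. By number over all widths the difference was 2.78 percentage points (2.31 to 3.26), by covered length 1.59, and among ACRs of at least 500 bp 0.900.

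The classes also differed in position along the chromosome, which was measured as a share of the chromosome length, with the outer 20% taken as the last 10% at each end and the inner 50% as the part from 25% to 75%. Of leaf-side ACRs 31.2% (30.8% to 31.6%) were outer and 42.6% (42.2% to 43.0%) inner. Of bud-side ACRs 41.4% (41.2% to 41.7%) were outer and 26.8% (26.5% to 27.0%) inner. Common ACRs stood between them, with 38.0% outer and 30.8% inner in the leaf list and 36.4% and 32.4% in the bud list. The median distance to the nearer end was 20.2% of the chromosome length for leaf-side and 13.5% for bud-side ACRs.

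The inner share was the higher in leaf-side ACRs on 21 of 21 chromosomes. The outer share was the higher in bud-side ACRs on 19 of 21. The widest gap was on 6D, where 27.2% of leaf-side and 48.6% of bud-side ACRs were outer. The exceptions were 5A, with 32.2% and 32.1%, and 6B, with 42.2% and 41.6%. On 5B the inner shares were nearly equal, 38.6% and 37.5%.

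**Figure D2:**
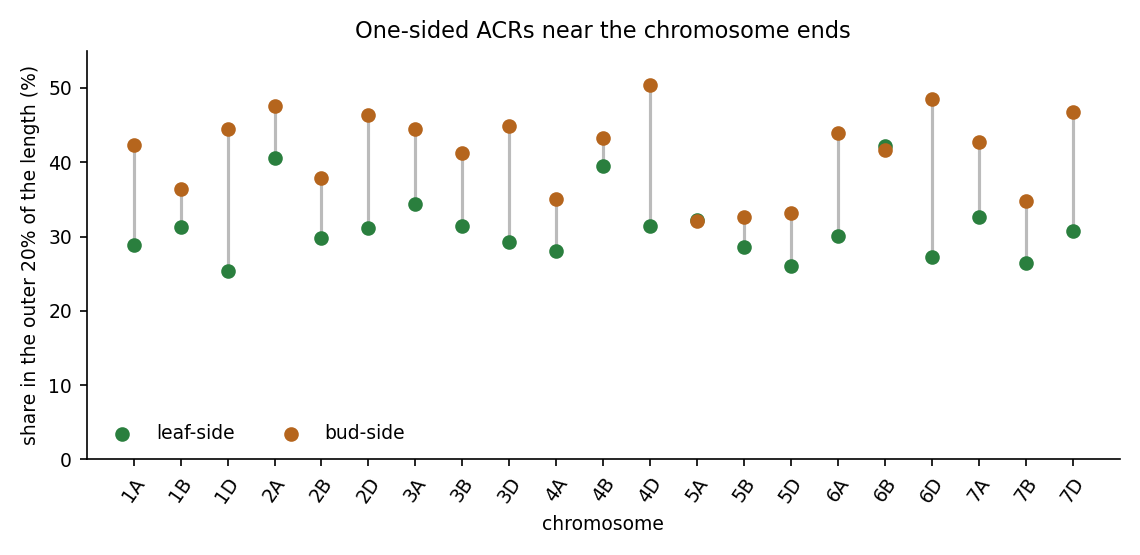
Share of leaf-side and of bud-side ACRs (y axis, percent) that lay in the outer 20% of each of the 21 chromosomes (x axis). Each point is 1 class on 1 chromosome and a line joins the pair. Bud-side points are above leaf-side points on 19 chromosomes, and on 5A and 6B the pair nearly coincides.

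Density showed the same contrast in finer steps. Bud-side density fell from 20.01 ACRs per Mb in the last 5% at the ends to 3.29 per Mb at the middle, and it fell at every step between. Leaf-side density fell from 7.58 per Mb at the ends to 2.99 per Mb at 25% to 30% of the length, and was higher again further in, at 4.20 per Mb at 40% to 45% and 4.14 per Mb at the middle. Common ACRs of the leaf list had 10.6 per Mb at the ends and 2.65 per Mb at the middle. Leaf-side ACRs therefore made up 27.5% of the one-sided ACRs at the ends but 55.7% at the middle, although the bud-side class was the larger.

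The crossing was seen in each sub-genome. At the middle the leaf-side share of one-sided ACRs was 53.5% on A, 54.1% on B and 59.6% on D, and at the ends it was 26.9%, 30.4% and 25.6%. On D it rose earlier along the chromosome, and it was 47.1% at 30% to 35% of the length, where A had 35.3% and B 35.9%. The inner share of leaf-side ACRs was 45.4% on D, 39.9% on A and 41.9% on B.

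**Figure D3:**
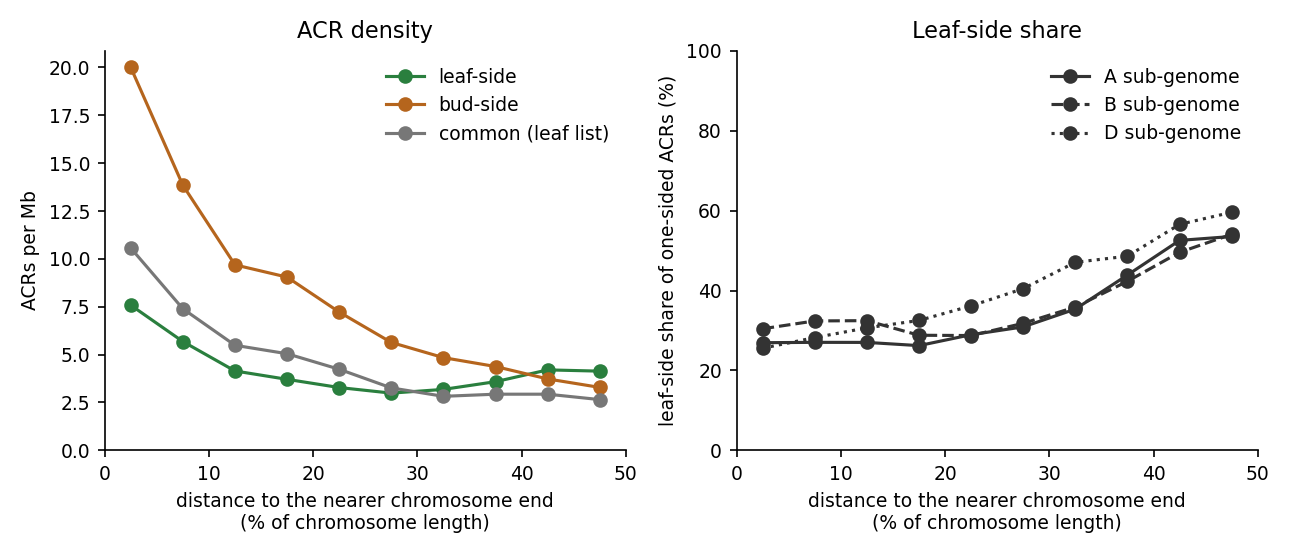
Left, density (y axis, ACRs per Mb) of leaf-side, bud-side and common ACRs by distance to the nearer chromosome end (x axis, percent of chromosome length, in steps of 5%, all 21 chromosomes). Right, leaf-side ACRs as a share of all one-sided ACRs (y axis, percent) over the same steps in each sub-genome, rising from between 25.6% and 30.4% at the ends to between 53.5% and 59.6% at the middle.

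The difference in position held at every width. Among ACRs of 201 to 250 bp, 29.4% of leaf-side and 39.8% of bud-side ACRs were outer, and above 2 kb 32.6% and 51.8% were. The inner share of leaf-side ACRs stayed between 40.8% and 44.3% over the 7 width ranges. That of bud-side ACRs fell from 29.7% at 251 to 350 bp to 16.7% above 2 kb. Common bud ACRs of 201 to 250 bp had an inner share of 39.7%, which was above the 28.7% of bud-side ACRs of that width. Under a reciprocal overlap of at least 50% the outer difference was 5.58 percentage points, in place of 10.2.

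Before vernalization the outer difference between the one-sided classes ran the other way. In the unvernalized lists 40.1% of leaf-side ACRs (39.6% to 40.7%) and 36.3% of bud-side ACRs (36.0% to 36.6%) were outer. The inner shares were then 32.4% and 31.3%.

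Clustering was measured by the gap from each one-sided ACR to the nearest ACR of its own class. The median gap was 14522 bp for leaf-side and 2902 bp for bud-side ACRs. Within 10 kb 45.3% of leaf-side ACRs (44.9% to 45.7%) and 70.4% of bud-side ACRs (70.2% to 70.7%) had such a neighbour. The bud-side share was the higher on 21 of 21 chromosomes. The bud-side class holds more ACRs, which by itself shortens gaps, and with lists of equal size the difference (leaf-side minus bud-side) was -12.8 percentage points in place of -25.1. Common leaf ACRs, of a number near that of leaf-side ACRs, had a median gap of 3802 bp and a share of 64.1% within 10 kb. In the unvernalized lists 41.6% of leaf-side and 64.5% of bud-side ACRs had a neighbour of their own class within 10 kb.

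A measure that can be set beside class size is the class of the next region along the chromosome. After merging common ACRs of both lists there were 59777 leaf-side, 114890 bud-side and 57327 common regions. Leaf-side regions were 25.8% of all, and the region after a leaf-side region was leaf-side in 42.7% of cases (42.3% to 43.1%), a ratio of 1.66. Bud-side regions were 49.5% of all and were followed by their own class in 60.02% (59.7% to 60.3%), a ratio of 1.21. For common regions these values were 24.7%, 30.6% and 1.24. The leaf-side ratio lay between 1.56 and 1.78 across chromosomes, above the bud-side range of 1.17 to 1.25. Both classes were thus followed by their own class more often than their share of all regions. The upper limit of the ratio falls as the share of a class rises, and is lower for the bud-side class. The ratios therefore cannot rank the classes by clustering. Within the inner 50%, leaf-side regions were 34.0% of all and followed by their own class in 48.6%, a ratio of 1.43, against 1.296 for bud-side regions. In the outer 20% the ratios were 1.87 and 1.17.

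A run was taken as neighbouring regions of one class with no region of another class between them. Single regions made up 63.0% of the 34234 leaf-side runs and 44.5% of the 45934 bud-side runs. Runs of 10 or more regions numbered 183 for leaf-side, 864 for bud-side and 3 for common regions. They held 2626 leaf-side regions, 4.39% of the class, and 10731 bud-side regions, 9.34% of the class. The long runs lay in different places. Of the leaf-side runs 66.1% were inner and 21.9% outer, while of the bud-side runs 15.4% were inner and 55.6% outer. On D lay 37.2% of the former and 31.1% of the latter.

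The longest leaf-side runs were in the interior of D chromosomes. The first had 74 leaf-side ACRs between 232650854 and 234598680 on chromosome 3D of IWGSC RefSeq v1.0, 38.0% along the chromosome. Across these 1947827 bp the vernalized bud list had 0 ACRs, the unvernalized leaf list 6, the unvernalized bud list 0, the shoot apex list 5 and the vernalized shoot apex list 0. The run was thus called mainly in vernalized leaf among the 6 lists. The next runs, of 54 and 50 ACRs, followed each other on 1D, from 170657132 to 172038507 and from 172051343 to 173896162. In each the unvernalized leaf list had 4 ACRs. The unvernalized bud list had 1 ACR in the former and 0 in the latter, and the vernalized shoot apex list had 0 in both.

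The longest bud-side runs were shorter and lay near chromosome ends. The first had 31 ACRs within 206302 bp, from 467979123 to 468185424 on 6D, 98.8% along the chromosome. The unvernalized bud list had 16 ACRs there, the shoot apex list 18, the vernalized shoot apex list 24 and the unvernalized leaf list 2. The second, also of 31 ACRs, lay on 7B from 735512929 to 735751815, with 26 ACRs in unvernalized bud, 24 in shoot apex, 23 in vernalized shoot apex and 5 in unvernalized leaf. The next had 27 ACRs on 3D from 2353289 to 2588029, with 27 ACRs in unvernalized bud, 31 in shoot apex, 22 in vernalized shoot apex and 11 in unvernalized leaf. The unvernalized bud and shoot apex lists thus had between 16 and 31 ACRs in these runs, against between 0 and 5 in the longest leaf-side runs. The choice of runs favours this contrast. Runs were picked by their vernalized bud ACRs, and 82.1% of all vernalized bud ACRs overlapped the unvernalized bud list. The runs also lay in parts of the chromosomes with unlike ACR density.

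**Figure D4:**
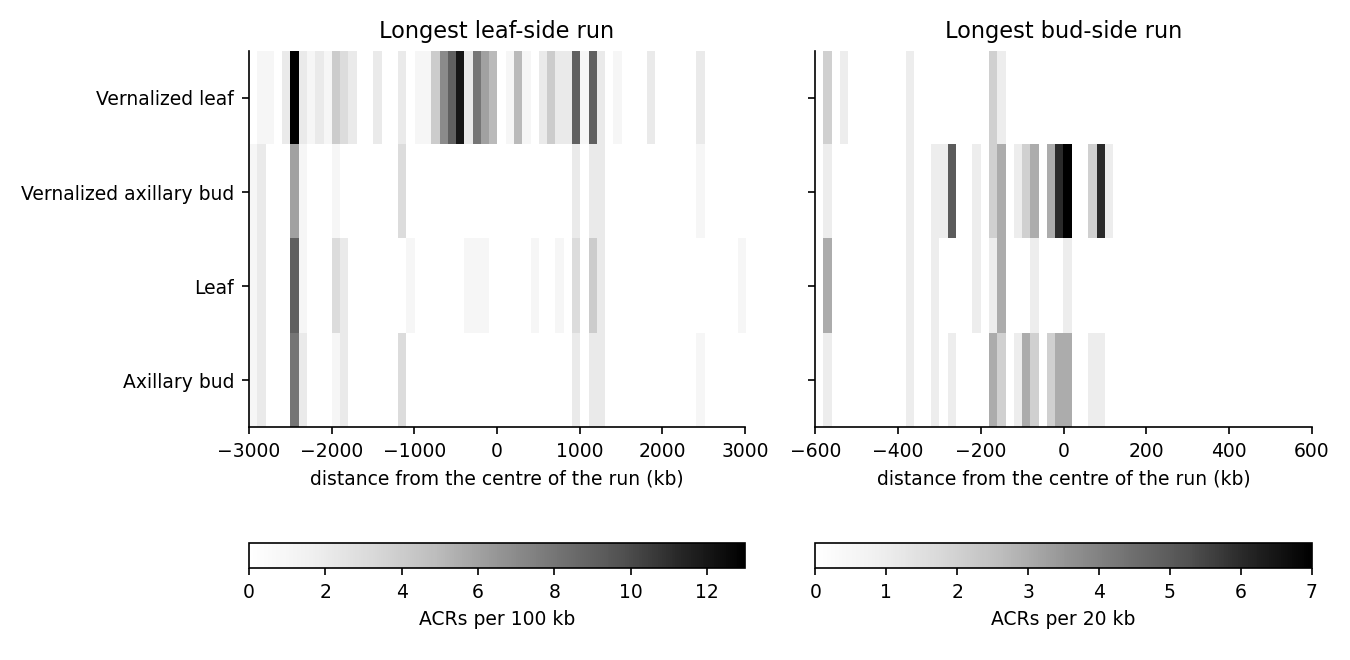
Number of ACRs (grey scale) of the 2 vernalized and the 2 unvernalized leaf and bud lists (rows) around the longest leaf-side run on 3D (left, steps of 100 kb) and the longest bud-side run on 6D (right, steps of 20 kb), by distance from the centre of the run (x axis, kb). The leaf-side run of 74 ACRs is marked mainly in the vernalized leaf row, while the bud-side run of 31 ACRs is also marked in the unvernalized bud row, which has 16 ACRs there.

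The classes were then counted in windows of 1 Mb. The variance of the number per window was 4.48 times its mean for leaf-side and 8.82 times for bud-side ACRs, with means of 4.25 and 8.16, and this ratio rises with the mean where ACRs cluster. Bud-side ACRs were the more numerous in 65.5% of the 14074 windows and leaf-side ACRs in 23.9%. Over these windows the number of bud-side ACRs followed that of common ACRs (Pearson's r = 0.689, Spearman's rho = 0.641) more closely than the number of leaf-side ACRs did (r = 0.536, rho = 0.542). Windows share the gradient along the chromosomes and the common ACRs belong to the same list as the leaf-side ACRs, so these values are descriptions.

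The windows with the largest excess were of different kinds. From 691000001 to 692000000 on 5B, 97.0% along the chromosome, 73 leaf-side and 7 bud-side ACRs were found beside 47 common leaf ACRs. There the number of ACRs was 120 in vernalized leaf, 50 in vernalized bud, 98 in unvernalized leaf, 7 in unvernalized bud, 137 in shoot apex and 10 in vernalized shoot apex. In the same 1 Mb the leaf and bud lists thus differed before vernalization too, with 98 and 7 ACRs. The shoot apex lists differed within 1 tissue, with 137 and 10. What set these numbers was not tested. The next windows, on 3D from 233000001 and on 1D from 170000001, held 51 and 37 leaf-side ACRs and 0 bud-side ACRs. The former window lay within the run on 3D and had 0 common ACRs, and the latter overlapped a run on 1D in part and had 3. The bud-side excess was largest on 2D from 2000001 to 3000000, with 78 bud-side and 5 leaf-side ACRs. It was followed by the last window of 4D, with 75 and 12, and by 2D from 13000001 to 14000000, with 77 and 18. In these 3 windows the unvernalized bud list had 68, 103 and 109 ACRs and the unvernalized leaf list 43, 63 and 73.

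Next it was asked whether the one-sided ACRs had been called before vernalization. The lists hold calls alone, so a region without a call may still have been accessible. Leaf-side ACRs mostly had not. Of them 19.8% (19.4% to 20.1%) overlapped the unvernalized leaf list, where 51.8% of all vernalized leaf ACRs did. In the unvernalized bud list 12.4% (12.2% to 12.7%) had an overlap, against 54.5% of all vernalized leaf ACRs. Bud-side ACRs mostly had been. Of them 76.9% (76.7% to 77.2%) overlapped the unvernalized bud list, where 82.1% of all vernalized bud ACRs did. In the unvernalized leaf list 32.5% (32.3% to 32.8%) had an overlap, against 49.8% of all vernalized bud ACRs. The shares of both classes lay under those of their whole lists, which hold the common ACRs too.

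By the pair of unvernalized lists, 44085 leaf-side ACRs (73.7%) were in neither, 8269 (13.8%) in leaf alone, 3883 (6.50%) in bud alone and 3540 (5.92%) in both. Over all vernalized leaf ACRs these shares were 36.9%, 8.57%, 11.2% and 43.3%. Of bud-side ACRs 53673 (46.7%) were in bud alone, 34696 (30.2%) in both, 23850 (20.8%) in neither and 2671 (2.32%) in leaf alone. Over all vernalized bud ACRs these shares were 35.2%, 46.9%, 14.97% and 2.93%. The largest part of the leaf-side class was thus in neither unvernalized list, and the largest part of the bud-side class was in the unvernalized bud list alone. A further 30.2% of bud-side ACRs were in both unvernalized lists and missing from the vernalized leaf list. Of leaf-side ACRs 5.92% were in both and missing from the vernalized bud list. Common ACRs were in both unvernalized lists in 76.8% of cases in the leaf list and in 79.3% in the bud list.

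**Figure D5:**
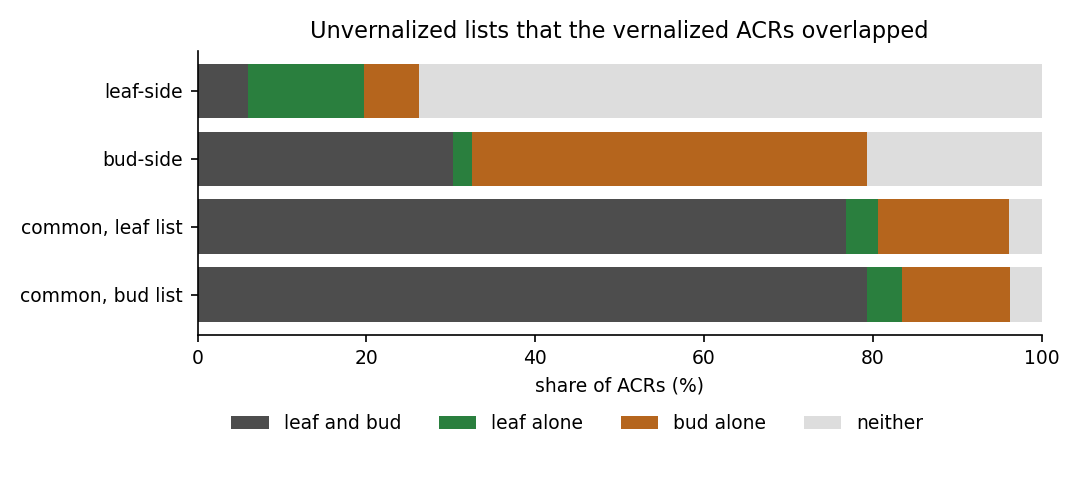
Vernalized ACRs by the unvernalized lists they overlapped, as shares of each class (x axis, percent) for leaf-side, bud-side and common ACRs (rows). Leaf-side ACRs were in neither unvernalized list in 73.7% of cases, and bud-side ACRs were in the bud list alone in 46.7% and in both in 30.2%.

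These groups differed in width and place. For width the overlap rule by itself favours wider ACRs in the groups called before, and its part was not tested. Leaf-side ACRs in neither unvernalized list had a median width of 304 bp, and those already in leaf alone 489 bp. The outer share was 31.0% in the former and 38.7% in the latter, and it was 23.3% in leaf-side ACRs that had been in both tissues. Bud-side ACRs in neither list had a median width of 250 bp, those in bud alone 350 bp and those in both 650 bp. Of bud-side ACRs in neither list 54.9% were outer, compared with 40.1% of those in bud alone and 33.7% of those in both. Regions not called before vernalization thus lay more often at the ends in the bud-side class than in the leaf-side class, by 54.9% against 31.0%. Of leaf-side ACRs in neither list 37.4% were on D, and of bud-side ACRs in neither list 35.0%.

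Width and earlier state went together in both tissues. The overlap rule by itself favours this, since a wide ACR has more bases to overlap with, and its part was not tested. Among leaf-side ACRs the share already in unvernalized leaf rose from 9.03% at 201 to 250 bp to 32.4% at 501 to 750 bp and 82.2% above 2 kb. Among bud-side ACRs the share already in unvernalized bud rose from 59.6% to 85.6% and 98.7% in the same ranges. Common ACRs showed a rise as well. Between 201 to 250 bp and above 2 kb it went from 64.6% to 99.0% in the leaf list. In the bud list it went from 66.2% to 99.8%. The one-sided classes were closer above 2 kb than in the narrower ranges given here. The difference between the classes was 57.2 percentage points over all widths, and 36.8 under a reciprocal overlap of at least 50%.

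The shoot apex lists were read last. Of leaf-side ACRs 9.80% overlapped the shoot apex list and 5.54% the vernalized shoot apex list, against 43.7% and 45.1% of all vernalized leaf ACRs. Of bud-side ACRs 40.6% overlapped the shoot apex list and 60.0% the vernalized one, against 52.2% and 67.5% of all vernalized bud ACRs. Axillary bud and shoot apex both hold meristem, the dividing tissue from which new organs form. Bud-side ACRs that had been in both unvernalized tissues overlapped the vernalized shoot apex list in 79.9% of cases. Those in bud alone did so in 60.7%, and those in neither list in 32.3%. Of leaf-side ACRs in neither unvernalized list 2.39% overlapped it.

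Over the 4 other lists together, 40097 leaf-side ACRs (67.1%) overlapped none, and 203 (0.340%) overlapped all 4. Of all vernalized leaf ACRs 32.6% overlapped none and 30.6% all 4. Of bud-side ACRs 13474 (11.7%) overlapped none and 19159 (16.7%) all 4. Of all vernalized bud ACRs 8.28% overlapped none and 31.7% all 4. Those bud-side ACRs were thus called in 5 of the 6 lists and missing from vernalized leaf alone. They had a median width of 950 bp, against 250 bp for bud-side ACRs in no other list. The overlap rule by itself favours this difference in width, and its part was not tested. Leaf-side ACRs in no other list had a median width of 284 bp.

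The widest single ACRs of the classes also differed in the lists that called them. Unlike the leaf-side class at large, most of the widest leaf-side ACRs overlapped the unvernalized leaf list. Their width by itself favours such an overlap, and its part was not tested. The widest leaf-side ACR with no bud ACR within 1 kb spanned 19114 bp on chromosome 2A, from 289756440 to 289775553. The unvernalized leaf list had 6 ACRs inside it, of 3400 bp together, and the bud and both shoot apex lists had 0. The next, 9850 bp wide on 2B from 779071336 to 779081185, had no overlap in any other list. On 7B the ACRs from 595790094 to 595799090 and from 433506809 to 433514921 held 4 and 3 unvernalized leaf ACRs and 0 of the other lists. Those unvernalized leaf ACRs covered 1857 of 8997 bp and 1158 of 8113 bp. On 4B the ACR from 334092036 to 334100246 held 6 unvernalized leaf ACRs, 2 of unvernalized bud and 3 of shoot apex.

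The widest bud-side ACRs were instead called in every list other than vernalized leaf, and here too width by itself favours overlap. The first spanned 9850 bp on 2A, from 756828758 to 756838607, and the unvernalized bud list had an ACR over all of it. Inside it the unvernalized leaf list had 6 ACRs of 3094 bp together, the shoot apex list 2 of 9332 bp and the vernalized shoot apex list 2 of 9599 bp. The others lay on 2A from 92317609 to 92327358, on 2B from 146441909 to 146451458, on 7B from 714501687 to 714511036 and on 2D from 94318987 to 94328236. In these 4 the unvernalized leaf list covered between 1065 and 3487 bp and the unvernalized bud list between 5050 and 9743 bp. All 5 had been accessible in leaf before vernalization along a part of their width, and the vernalized leaf list had 0 ACRs in them and within 1 kb.

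The widest common regions were single ACRs in bud that met several in leaf. On 3B the bud ACR from 793019760 to 793042299, 22540 bp wide, met 9 leaf ACRs that covered 17021 bp of it. On 4A the region from 6913486 to 6933535 was 1 ACR in bud and 10 in leaf, of 5232 bp together. On 2A the region from 12159600 to 12178742 was 1 ACR in bud and 8 in leaf, of 11011 bp together. All 3 lay within 5% of a chromosome end and were called in every one of the 6 lists.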

How the data were processed

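The deposited values are positions: each list holds the chromosome, start and end of every ACR, with no score or count. As the authors describe, reads were trimmed with fastp 0.21.0, aligned with Bowtie2 2.3.5.1 to IWGSC RefSeq v1.0, filtered with SAMtools 1.3.1 and freed of duplicates with Picard 2.16.0. Peaks called with MACS2 2.2.6 were cut into overlapping bins, filtered on Tn5 insertions and joined with bedtools, and peaks of input or chloroplast were removed. The bin filter and the joining set ACR width, and mapping quality affects repeats. How a list was made from the 2 samples of its group is not given in the sources used here. The highest ACR end among the lists stood for the length of a chromosome. Coordinates are 1-based. Overlaps, merging and gaps were computed in Python 3.11.15 with numpy 2.4.6 and pandas 2.3.3 and tested on simulated data. Named were the 5 widest isolated ACRs of each side (no ACR of the other list within 1 kb), the 3 widest common regions, the 3 longest runs and the 3 windows of 1 Mb with the largest excess. Classes, rules and lists were chosen with earlier results of these data known. Sequence and genes were not analysed here, since no genome or annotation of this build was used.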

Additional observations from a re-analysis of the deposited data

Results flagged for a closer look

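The outer share of bud-side minus that of leaf-side ACRs was of opposite sign in unvernalized and vernalized plants. It was -3.86 percentage points before vernalization and 10.2 percentage points after it, with 1 pair of lists in each case. The difference between the conditions was not tested, since no group had a second list.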

How the results depend on the processing

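No paired analysis was possible because each group had 1 list, so the replicate numbers of the labels could not be used, and no replicate could be left out. No difference changed sign under any of the alternatives listed here, and most sizes moved beyond their counting interval. The split by width range, given above, was not among them. In it the D difference was of opposite sign in the ranges above 1 kb. With a reciprocal overlap of at least 50%, common leaf ACRs numbered 25817 and leaf-side ACRs 100534. The median width difference (bud-side minus leaf-side, 75.5 bp as reported) was then 100 bp, the D difference (leaf-side minus bud-side) 2.09 points, the outer difference (bud-side minus leaf-side) 5.58, the difference within 10 kb (leaf-side minus bud-side) -14.9 and the difference in ACRs called before (bud-side minus leaf-side) 36.8. With 50% of the ACR covered, the width difference was 100 bp, that within 10 kb -26.7 and that in ACRs called before 55.6. With ACRs of at least 500 bp, 29008 leaf ACRs were common, 19345 leaf-side and 62117 bud-side, and the 5 differences were 132 bp, 0.900, 10.9, -19.3 and 42.7. With lists of equal size, 73358 ACRs were bud-side, and the differences were 206 bp, 3.47, 11.3, -12.8 and 62.6. With ACRs up to 1 kb apart joined, they were 106 bp, 3.58, 7.93, -20.8 and 60.6. Counting ACRs up to 200 bp apart as common gave 57.6 for ACRs called before, and asking for 50% cover by the unvernalized list 58.9. By covered length the D and outer differences were 1.59 and 12.2. The outer difference was 6.65 for the outer 10% and 14.7 for the outer 40%. The neighbour difference was -14.1 at 1 kb and -13.6 at 100 kb. Leaving out ACRs in runs of 10 or more, chosen after seeing the data, gave 2.298 for D, 8.10 for the outer share and -24.9 within 10 kb. Leaving out chromosome 1B moved no value beyond its interval. Read depth, which can set how many narrow ACRs are called, cannot be read from the lists.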
